A study of Drosophila melanogaster with 6 samples.

Results

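The yellow and achaete-scute interval lies near the tip of the Drosophila melanogaster X chromosome. It was taken as every 100 bp window of the 160 kb of X that end at position 360000 in genome build dm3. This gave 1600 of the 1687367 windows in the files. The interval was set by position, with earlier results of these data known. The interval carries y (yellow), a gene of cuticle pigmentation, and the achaete-scute complex. Its genes ac, sc, l(1)sc and ase encode basic helix-loop-helix transcription factors that direct cells toward neural fate, and sc also serves in the counting of X chromosomes that sets sex. In the RefSeq order of genes, y is followed by lncRNA:yar, ac, 3 more long non-coding RNAs, sc, l(1)sc, Pgcl, ase and Cyp4g1, an enzyme of cuticular hydrocarbon synthesis.

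Insulators are DNA elements that, when bound by their proteins, limit the action of an enhancer on a promoter. Su(Hw) is the zinc finger protein that binds the insulator of the gypsy retrotransposon, and yellow is a gene at which gypsy insulation has long been studied. An insulator of the fly's own genome that binds Su(Hw) lies between y and ac. The annotation used here is of Release 6 and was used for names and order, so genes and the insulator are not placed on the dm3 windows and windows are given by position.

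The libraries came from ovaries of virgin females under 6 h of age, of the mutant su(Hw)f (strain label su(Hw)fv) and of wild type (strain label Canton S). Chromatin fixed in 1.8% formaldehyde was sequenced as preimmune or as input, where preimmune serum is by definition taken from an animal before it is immunised. Titles and descriptions name the libraries so, but the antibody label of all 4, inputs included, reads anti-Su(Hw). The libraries are called here by their titles, and the files give no check of which serum was used. Each genotype had 1 preimmune and 1 input library, and the Su(Hw) immunoprecipitations are not analysed here, so binding at the insulator was not measured. Because each group is a single library, no test was possible, and intervals cover counting error only. The genotypes are different strains, so the mutation and the strain background cannot be told apart.

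The libraries held 20130453 reads (su(Hw)f preimmune), 20596448 (su(Hw)f input), 12173312 (wild-type preimmune) and 13993582 (wild-type input), and 97.4% to 98.5% of them lay on the 6 major arms, which are X, both arms of chromosomes 2 and 3, and chromosome 4. Levels are RPM, reads scaled to 1000000 on these arms. The mean kilobase of the arms holds 8.31 RPM, and the mean kilobase of X held from 7.96 to 8.46. Scatter between neighbouring 100 bp windows of the interval was 3.96 times the Poisson value for preimmune and 2.0 times for input of su(Hw)f, and 3.57 and 1.39 times for preimmune and input of wild type, so single windows vary more than their intervals show.

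In both genotypes the interval was rich in preimmune reads relative to input. The su(Hw)f libraries held 26361 reads there in preimmune and 18641 in input, and the wild-type libraries held 18805 in preimmune and 15399 in input. Per kilobase, su(Hw)f had 8.35 RPM in preimmune and 5.74 in input, and wild type had 9.91 in preimmune and 7.02 in input. Set against the mean of the major arms, these levels were 1.0 times for preimmune and 0.691 times for input of su(Hw)f, and 1.19 times for preimmune and 0.845 times for input of wild type. Input thus lay below the arm mean in both genotypes, and preimmune lay above it in wild type and at it in su(Hw)f.

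In su(Hw)f the median 100 bp window held 16 preimmune reads (quartiles 8 and 24) and 10 input reads (5 and 16). In wild type it held 11 preimmune reads (6 and 16) and 9 input reads (6 and 13). On the rest of X the medians were 15, 14, 8 and 10 in the same order of libraries. Both preimmune medians were therefore above that of the rest of X, and both input medians below it.

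**Figure D1:**
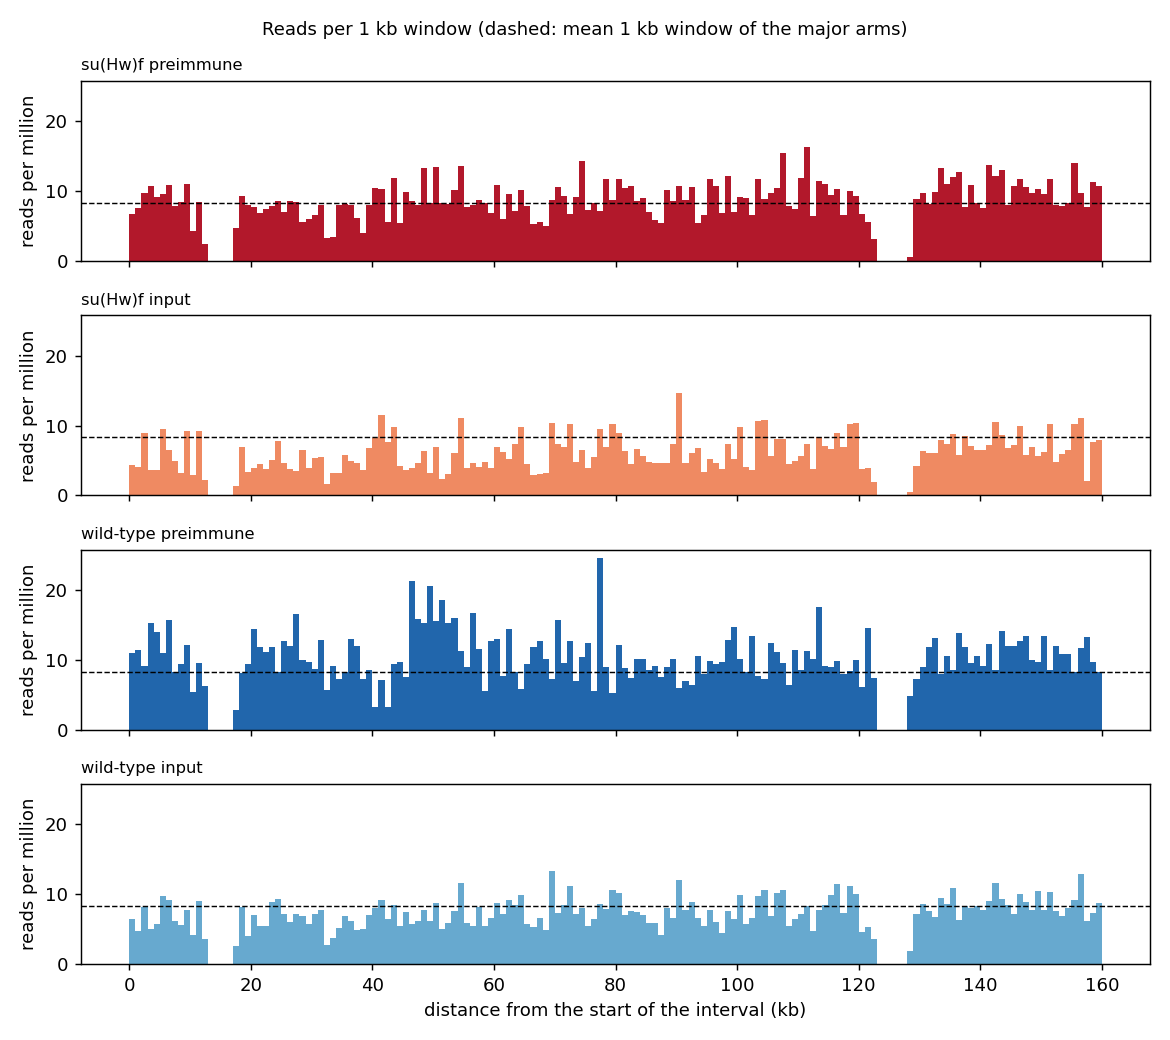
RPM in each of the 160 windows of 1 kb, by distance from the start of the interval, for the 4 libraries; the dashed line is the mean kilobase of the arms, 8.31. Input bars lie mostly under the line in both genotypes, and both gaps without reads stand in all 4 panels.

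Windows without reads were slightly rarer than on the rest of X. Empty 100 bp windows numbered 145 of 1600 in su(Hw)f preimmune (9.06%, 95% Clopper-Pearson interval 7.70% to 10.6%) and 152 in su(Hw)f input (9.50%, 8.11% to 11%). They numbered 141 in wild-type preimmune (8.81%, 7.47% to 10.3%) and 124 in wild-type input (7.75%, 6.49% to 9.17%). On the rest of X the shares were 10.5% for either su(Hw)f library, 11.5% for wild-type preimmune and 8.95% for wild-type input. Of the 4 libraries, wild-type preimmune alone had a counting interval that left out its share on the rest of X. These intervals treat windows as independent, while most empty windows lay in runs, so they understate the error and do not single out a library.

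Most empty windows were the same in every library. Of 1600 windows, 110 were empty in all 4 libraries (6.88%, against 7.52% on the rest of X), and 108 of these formed 3 runs. The first was X 212601 to 213800, with 1200 bp, and the second X 213901 to 217500, with 3600 bp; they are parted by a single window that held 1 read of su(Hw)f input. The third was X 322501 to 328500, with 6000 bp. A count of 0 allows up to 3 reads per library in each run.

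Among the other 1490 windows, 35 were empty in preimmune (2.35%) and 42 in input (2.82%) of su(Hw)f, and 31 in preimmune (2.08%) and 14 in input (0.940%) of wild type. The rest of X had 3.26%, 3.18%, 4.26% and 1.55% in the same order. Each share was thus lower in the interval, by little in su(Hw)f input, and these differences were not tested.

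Preimmune over input compares what the serum recovered, as the titles name it, with the chromatin before recovery. Over the whole interval the ratio was 1.45 in su(Hw)f (95% exact conditional interval 1.43 to 1.48) and 1.41 in wild type (1.38 to 1.44). On the rest of X it was 0.938 in su(Hw)f and 0.966 in wild type. Cut into blocks of 160 kb in step with the interval, X gave 137 blocks with at least 10000 reads in the libraries compared. The interval had the highest ratio of the 137 in su(Hw)f and the highest in wild type. The next blocks stood at 1.36 in su(Hw)f and 1.40 in wild type, and the median block at 0.952 in su(Hw)f and 0.983 in wild type. The wild-type lead over the next block is within the counting interval. Of all 139 blocks, 56 held more su(Hw)f preimmune reads than the interval and 14 held fewer su(Hw)f input reads. For wild type, 2 blocks held more preimmune reads than the interval and 26 held fewer input reads. Both the interval and the blocks were set with earlier results of these data known. The order of blocks does not depend on the scaling of the libraries. In su(Hw)f the median 1 kb window of all major arms was already at a log2 ratio of 0.14, and relative to it the interval stood at 1.32.

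**Figure D2:**
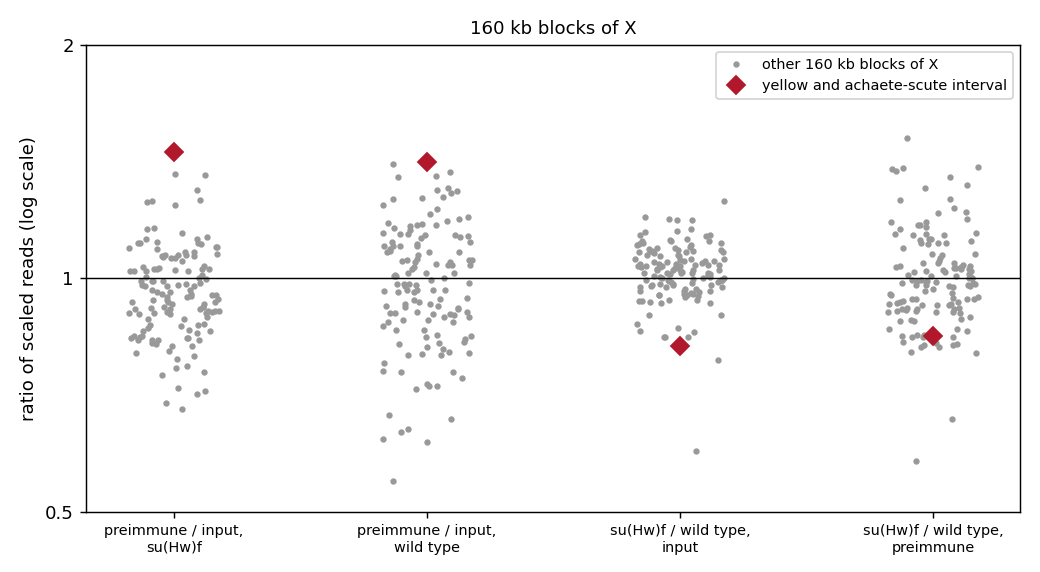
Ratio of scaled reads (log axis) for blocks of 160 kb along X; the red diamond is the yellow and achaete-scute interval and each grey point another block, spread sideways for sight. The diamond is the topmost point for preimmune over input in su(Hw)f (1.45) and in wild type (1.41), and stands low for the genotypes compared in input (0.818) and in preimmune (0.842).

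Summed to 10 kb, the excess ran along the whole interval. All 16 windows of 10 kb had a ratio above 1 with an interval above 1 in both genotypes. In su(Hw)f the ratios ranged from 1.28 at X 260001 to 270000 to 1.84 at X 250001 to 260000, with a median of 1.44. In wild type they ranged from 1.18 at X 310001 to 320000 to 1.87 at X 250001 to 260000, with a median of 1.32. The highest window was the same in both genotypes. There su(Hw)f held 1845 preimmune and 1033 input reads, and wild type held 1569 preimmune and 968 input reads. At 1.5-fold, 5 of 16 windows were higher in preimmune in su(Hw)f and 6 of 16 in wild type, where 4.77% and 7.87% of 10 kb windows on the major arms were.

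At 1 kb, windows were counted when the ratio was at least 2-fold and the libraries compared held 20 reads together, which left 151 of 160. In su(Hw)f, 27 were higher in preimmune (17.9%, against 6.82% on the major arms) and 0 were lower (3.35% on the arms). In wild type, 35 were higher (23.2%, against 9.75%) and 3 were lower (1.99%, against 10%). The interval thus held more high windows and fewer low ones than the arms in either genotype. The median log2 ratio over the 151 windows was 0.61 in su(Hw)f and 0.50 in wild type, against 0.14 and 0.02 over the arms.

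The high windows were in part the same. Of these windows 12 were higher in both genotypes, which is 44.4% of the su(Hw)f list and 34.3% of the wild-type list, and these lists come from separate libraries. Over the major arms the shared windows were 47.9% of the su(Hw)f list and 33.5% of the wild-type list, so the sharing was much the same there. The 12 lay at X 203001 to 205000, X 219001 to 220000, X 226001 to 228000, X 232001 to 233000, X 246001 to 247000, X 249001 to 250000, X 251001 to 253000, X 336001 to 337000 and X 357001 to 358000.

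At X 251001 to 252000, su(Hw)f held 165 preimmune and 49 input reads and wild type held 221 preimmune and 69 input reads. The ratio was 3.46 in su(Hw)f (2.50 to 4.86) and 3.70 in wild type (2.81 to 4.93). This window was among the 3 highest in each genotype.

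At X 357001 to 358000, su(Hw)f held 154 preimmune and 41 input reads, and wild type held 158 preimmune and 85 input reads. The ratio was 3.86 in su(Hw)f (2.72 to 5.59), the highest of the interval there, and 2.15 in wild type (1.64 to 2.83). The window had one of the lowest ratios between genotypes in input, 0.326 (0.219 to 0.479), with 0.586 in preimmune (0.466 to 0.736). Its low input ratio and its high su(Hw)f ratio share the same 41 su(Hw)f input reads.

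X 217001 to 218000, which spans the end of an empty run, had 92 reads of preimmune and 26 of input for su(Hw)f, and 34 and 35 for wild type. Its ratio was 3.64 in su(Hw)f (2.33 to 5.86) and 1.12 in wild type (0.680 to 1.85). The excess of this last window was thus beyond counting error in su(Hw)f, and in wild type its interval held 1.

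The highest ratio of wild type was at X 246001 to 247000, where su(Hw)f held 170 preimmune and 79 input reads and wild type 253 and 78. The ratio was 2.21 in su(Hw)f (1.68 to 2.93) and 3.75 in wild type (2.90 to 4.90). X 249001 to 250000 had ratios of 2.62 in su(Hw)f (1.95 to 3.55) and 3.32 in wild type (2.58 to 4.30). With X 251001 to 252000 these are the 3 highest windows of wild type, and they lie within 6 kb.

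Few windows were low in preimmune by a set fold. At 1.5-fold, 1 of 151 windows of 1 kb was lower in su(Hw)f and 6 in wild type, against 12.2% and 22.0% on the arms. Lesser lows occurred too, such as X 304001 to 305000, at 0.825 in su(Hw)f and 0.689 in wild type. At X 290001 to 291000, su(Hw)f had 211 reads of preimmune and 297 of input, and wild type had 71 and 165. Its ratio was 0.730 in su(Hw)f (0.609 to 0.874) and 0.497 in wild type (0.371 to 0.661). X 242001 to 243000 had ratios of 0.725 in su(Hw)f (0.562 to 0.931) and 0.499 in wild type (0.332 to 0.738). Both were among the 3 lowest of each genotype. The lowest of su(Hw)f, X 272001 to 273000, was at 0.660 in su(Hw)f (0.527 to 0.825) and 1.13 in wild type (0.899 to 1.43).

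**Figure D3:**
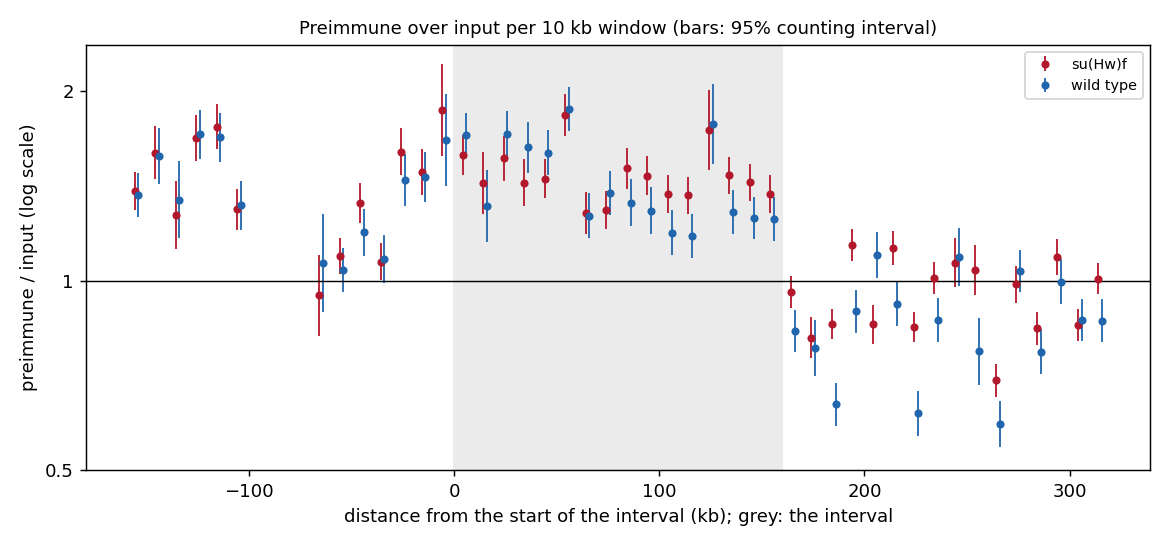
Preimmune over input (log axis) per 10 kb window, by distance from the start of the interval (grey), with 160 kb on each side; red is su(Hw)f, blue is wild type, bars are 95% counting intervals, and windows under 50 reads are left out. All points inside the grey band lie above 1, and wild-type points to its right lie mostly below 1.

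The flanks, looked at after the interval had been seen, differed from each other. In the 160 kb before the interval, X 40001 to 200000, the ratio was 1.36 in su(Hw)f (1.33 to 1.40) and 1.36 in wild type (1.32 to 1.39), and 3 of its windows of 10 kb held under 50 reads. In the 160 kb after it, X 360001 to 520000, the ratio was 0.932 in su(Hw)f (0.918 to 0.947) and 0.836 in wild type (0.819 to 0.853). The last window of the interval, X 350001 to 360000, stood at 1.37 in su(Hw)f and 1.25 in wild type, and the next, X 360001 to 370000, at 0.960 in su(Hw)f and 0.831 in wild type.

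Input reads differed more across that step than preimmune reads. From the earlier of these windows to the later, su(Hw)f preimmune held 1961 and then 2233 reads and su(Hw)f input 1466 and then 2391. Wild-type preimmune held 1270 and then 1132, and wild-type input 1170 and then 1574. Past 360000, 7 of 16 windows were above 1 in su(Hw)f and 3 of 16 in wild type. At 1 kb the step was not clean: X 365001 to 366000 was at 1.60 in su(Hw)f and 1.60 in wild type, and X 356001 to 357000 at 0.882 in su(Hw)f and 0.908 in wild type.

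Between genotypes, the interval was lower in su(Hw)f in both kinds of library. Relative to wild type, su(Hw)f stood at 0.818 for input (0.801 to 0.836) and at 0.842 for preimmune (0.827 to 0.858), where the rest of X stood at 1.03 in input and 1.0 in preimmune. Of the 137 blocks of X, 2 had a lower ratio in input and 14 in preimmune. The lower level of su(Hw)f was thus seen in input as well as in preimmune. It was not confined to the interval. For the 160 kb before it the input ratio was 0.840 (0.819 to 0.863) and the preimmune ratio 0.846 (0.826 to 0.866), with 12 of 13 windows of 10 kb below 1 in each. For the 160 kb after it the input ratio was 1.05 (1.03 to 1.07) and the preimmune ratio 1.17 (1.15 to 1.20).

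In input all 16 windows of 10 kb were below 1 with intervals below 1, from 0.635 at X 320001 to 330000 to 0.890 at X 240001 to 250000. In preimmune 15 of 16 were below 1, and 9 had intervals below 1, from 0.621 at X 320001 to 330000 to 1.01 at X 310001 to 320000. At 1.5-fold, only X 320001 to 330000 was lower in input (1.34% of 10 kb windows on the arms were). In preimmune X 220001 to 230000, at 0.628, and X 320001 to 330000 were lower (3.42% on the arms). X 320001 to 330000 contains the longest empty run, so its 493 and 292 su(Hw)f reads and 477 and 311 wild-type reads, preimmune and then input, come from the remainder of the window.

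At 1 kb and 2-fold, 6 of 151 windows were lower in su(Hw)f input (3.97%, against 2.25% on the arms) and 0 were higher (0.226%). In preimmune 15 were lower (9.93%, against 6.67%) and 1 was higher (0.662%, against 5.96%). These shares of lower windows were closer to the background than those of preimmune over input. The median log2 ratio over the 151 windows was -0.32 in input and -0.24 in preimmune, against -0.07 and 0.05 over the arms. Lower in both kinds of library were 3 windows, which is 50% of the input list and 20% of the preimmune list, against 55.5% and 18.7% over the major arms. They were X 251001 to 252000, X 267001 to 268000 and X 328001 to 329000.

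The lowest ratio in both was at X 328001 to 329000, which spans the end of the longest empty run. su(Hw)f had 12 reads of preimmune and 11 of input, against 57 and 25 in wild type. The ratio was 0.126 in preimmune (0.0618 to 0.238) and 0.297 in input (0.132 to 0.627). The gap between genotypes was widest at X 328701 to 328800, where su(Hw)f had 0 preimmune and 2 input reads and wild type had 23 and 7, and at X 328801 to 328900, where su(Hw)f had 0 and 1 and wild type had 15 and 2.

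At X 267001 to 268000 there were 110 reads of preimmune and 63 of input for su(Hw)f, and 150 and 91 for wild type. Between genotypes this gave 0.441 in preimmune (0.341 to 0.567) and 0.468 in input (0.334 to 0.652). At X 233001 to 234000, preimmune was at 0.369 (0.268 to 0.505) and input at 0.832 (0.568 to 1.22), so that only the preimmune difference exceeded counting error. The highest ratios in input were 1.25 at X 241001 to 242000 (1.0 to 1.56), 1.22 at X 290001 to 291000 (1.0 to 1.48) and 1.20 at X 242001 to 243000 (0.917 to 1.57), and these 3 windows stood at 1.43, 1.79 and 1.74 in preimmune.

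**Figure D4:**
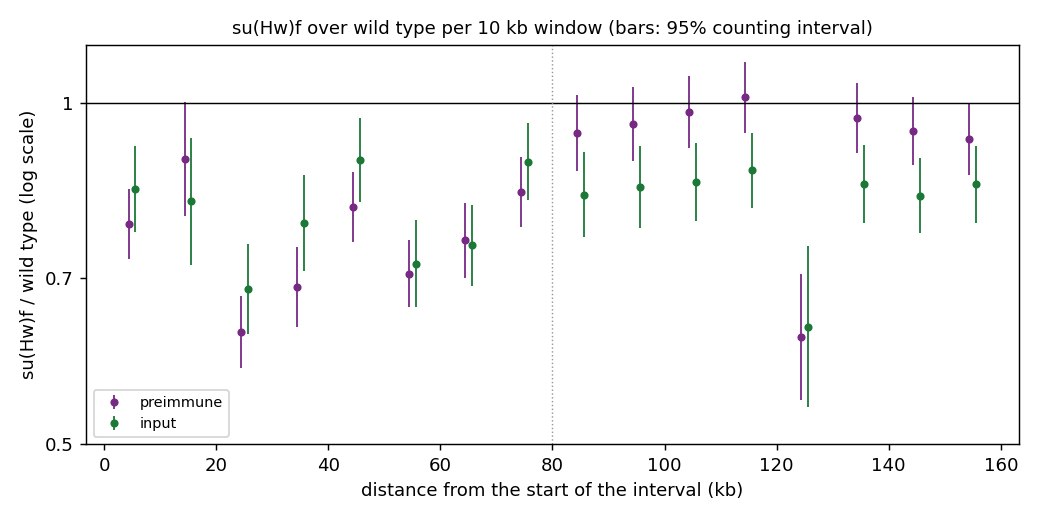
Ratio of su(Hw)f to wild type (log axis) for each of the 16 windows of 10 kb, by distance from the start of the interval, with preimmune in purple, input in green and 95% counting intervals as bars; the dotted line marks X 280000. Input points all lie below 1; preimmune points lie lower left of the line than right of it, apart from the window with the longest empty run.

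The preimmune difference between genotypes changed along the interval, at a place noticed in these values. Over the first 80 kb, which end at X 280000, su(Hw)f stood at 0.750 of wild type in preimmune (0.731 to 0.771) and 0.797 in input (0.772 to 0.822). Over the second 80 kb, X 280001 to 360000, these were 0.943 in preimmune (0.918 to 0.968) and 0.838 in input (0.813 to 0.862). Windows of 10 kb that hold a run empty in all 4 libraries were then left out. In preimmune, 7 windows on the first side lay between 0.628 and 0.834, and 7 on the second side between 0.928 and 1.01. In input the same windows lay between 0.685 and 0.890 on the first side, and between 0.828 and 0.871 on the second. In either kind of library the lowest on the first side was X 220001 to 230000, which holds X 225701 to 226000, empty in su(Hw)f alone. The next lowest in preimmune was 0.688 at X 230001 to 240000.

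The preimmune levels of the genotypes differed along the interval in opposite directions. Preimmune of su(Hw)f stood at 7.78 RPM per kilobase on the first side and 8.92 on the second, and wild-type preimmune at 10.4 and 9.45. Preimmune over input was 1.48 in su(Hw)f (1.44 to 1.52) and 1.57 in wild type (1.52 to 1.62) on the first side, and 1.43 (1.40 to 1.47) and 1.27 (1.24 to 1.31) on the second. Tested windows of 1 kb numbered 76 on the first side and 75 on the second. Of the 35 that were higher in wild-type preimmune, 25 lay on the first side and 10 on the second. Of the 27 of su(Hw)f, 17 lay on the first side and 10 on the second. Each side was thus above the share on the major arms, which was 9.75% for wild type and 6.82% for su(Hw)f. The division was placed after these preimmune values were seen, so the counts are no separate check of it. The ratios between genotypes and those within wild type share the wild-type preimmune library.

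The fullest 100 bp windows differed between libraries. Wild-type preimmune had its peak at X 277501 to 277600, which held 14 reads of preimmune and 13 of input for su(Hw)f, and 93 and 10 for wild type. That is 11.6 times the median 100 bp window of X in wild-type preimmune. Around it, X 277401 to 277500, X 277601 to 277700 and X 277701 to 277800 held 24, 38 and 61 reads of wild-type preimmune, and no more than 12 in any other library. These 4 adjoining windows stood out in 1 library, and with 1 library per group they have no replicate check.

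The next fullest window of wild-type preimmune outside that cluster, X 203101 to 203200, was fuller in preimmune in both genotypes, with 37 preimmune and 8 input reads for su(Hw)f and 52 and 13 for wild type. In su(Hw)f preimmune the fullest windows reached 57, 56 and 55 reads, 3.67 to 3.80 times the median of X. The first of them, X 311101 to 311200, held 57 preimmune and 16 input reads of su(Hw)f against 1 and 8 of wild type. In input the fullest window was X 272801 to 272900 in su(Hw)f, with 54 reads, and X 335901 to 336000 in wild type, with 31. That wild-type input maximum had 26 preimmune and 20 input reads of su(Hw)f, and 0 preimmune reads of wild type.

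Windows without reads in 1 genotype only were rare. Windows with 0 reads in both su(Hw)f libraries and at least 10 in wild type numbered 6 of 1370 (0.438%, against 0.363% on the major arms). Windows with 0 reads in both wild-type libraries and at least 10 in su(Hw)f numbered 0 of 1325 (0.206% on the arms). The share for su(Hw)f was near its background, and for wild type no such window was found. The 6 windows lay at X 207901 to 208000, X 225701 to 225800, X 225901 to 226000, X 229801 to 230000 and X 261001 to 261100.

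A run of 3 windows, X 225701 to 226000, was empty in su(Hw)f and not in wild type. Neither su(Hw)f library had a read there, and wild type had 48 reads of preimmune and 18 of input. Scaled to the su(Hw)f libraries, the wild-type reads come to 79.9 in preimmune and 26.6 in input. The upper end of the 95% exact conditional interval put su(Hw)f at 4.80% of wild type in preimmune and 15.4% in input. That interval counts the error of both genotypes but not the choice of the run, which was named because both su(Hw)f libraries were empty. The bound therefore describes the chosen run only, and the share of such runs over the arms is not given here. In the 500 bp before the run, su(Hw)f held 86 preimmune and 53 input reads and wild type 84 and 49. In the 500 bp after it, su(Hw)f held 55 and 36, and wild type 48 and 34. Reads were present on both sides in all 4 libraries.

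**Figure D5:**
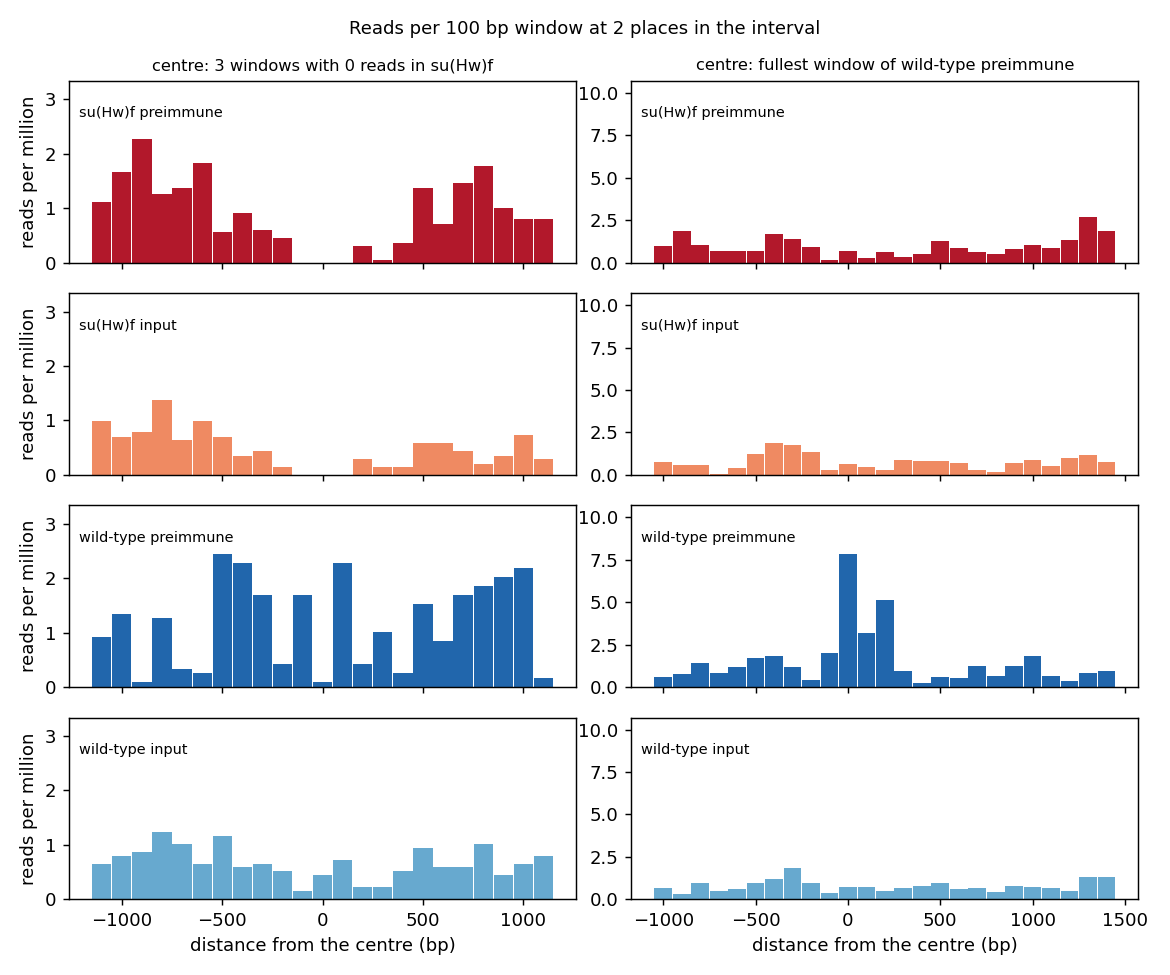
RPM per 100 bp window, by distance in bp from the centre, around X 225701 to 226000 (left column) and X 277501 to 277600 (right column), 1 row per library with su(Hw)f above wild type. The centre of the left column is empty in both su(Hw)f rows alone, and the cluster at the centre of the right column stands in wild-type preimmune alone.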

How the data were processed

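Each file gives the read counts per 100 bp window that the authors deposited, unscaled, as whole numbers; per the file headers they are wiggle tracks. The submitters' processing notes name dm3 and Partek 6.5. How reads were aligned, and whether duplicates or multi-match reads were kept, is not given in the sources used here. Dropped multi-match reads would leave repeats empty, and kept PCR duplicates (15 cycles) would widen scatter.

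Counts were summed to 1 kb and 10 kb and scaled to reads on the major arms, with Python 3.11.15, numpy 2.4.6 and scipy 1.17.1. Ratios carry 95% exact conditional (Clopper-Pearson) intervals. Calls took 2-fold and 20 counts at 1 kb, or 1.5-fold and 50 counts at 10 kb, across all windows of the arms. The members and rules were chosen with earlier results of these data known. Windows named are the 3 highest and 3 lowest of 1 kb per comparison, the 3 highest of 100 bp per library, and empty runs of at least 3 windows; others, and the blocks, flanks and division at X 280000, were chosen after values were seen. All 10 gene names looked up matched RefSeq Release 6.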

Additional observations from a re-analysis of the deposited data

Results flagged for a closer look

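In 2 named windows, preimmune over input lay on opposite sides of 1 in the genotypes, with both counting intervals off 1. The difference itself was not tested. At X 240001 to 241000 the ratio was 1.27 in su(Hw)f (1.03 to 1.57), with 207 preimmune and 167 input reads, and 0.410 in wild type (0.277 to 0.596), with 39 and 110. At X 277001 to 278000 it was 0.752 in su(Hw)f (0.601 to 0.939), with 142 preimmune and 194 input reads, and 2.83 in wild type (2.28 to 3.53), with 291 and 119. Scaled to the median 1 kb ratio, an alternative that was added once the data had been seen, the first window stood at 1.16 in su(Hw)f (0.938 to 1.43), which holds 1, and 0.405 in wild type (0.273 to 0.588), so it no longer met the criterion. The second stood at 0.683 in su(Hw)f (0.546 to 0.852) and 2.79 in wild type (2.25 to 3.49), and still met it. The second window holds the windows at X 277401 to 277800, and in the first, wild-type preimmune is the low library. X 292001 to 293000, which is not among the named windows, also met the criterion. It stood at 1.75 in su(Hw)f (1.39 to 2.21) and 0.720 in wild type (0.534 to 0.967). Its values scaled to the median 1 kb ratio are not given here.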

How the results depend on the processing

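No paired analysis was possible because each group has 1 sample and the labels give no replicate numbers. No alternative turned a direction of the whole-interval ratios. Scaling to reads on X gave 0.795 between genotypes in input, and preimmune over input of 1.54 in su(Hw)f and 1.46 in wild type. Scaling to the median 1 kb ratio gave 0.856 in input and 0.816 in preimmune between genotypes, and preimmune over input of 1.32 in su(Hw)f, where that median lies at 0.14 in log2. It also left 3 windows of 1 kb past 2-fold for input, where 6 were counted. Shares over the major arms are not given at that scaling or for windows of 2 kb, so those counts lack a background. Windows of 2 kb, of which 77 were tested, gave 0 for input, 5 for preimmune between genotypes, 9 for preimmune over input in su(Hw)f and 13 in wild type. At 1.5-fold the counts were 34, 57, 81 and 73 in that order. Of the 57, su(Hw)f was higher in 12 and lower in 45, where 1 was higher at 2-fold, and over the major arms 19.2% were higher and 17.2% lower. The 34 were all lower (10.1% of the arms), 80 of the 81 were higher (22.3%) and 67 of the 73 were higher (22.6%). Scaling to all reads, trimming 20 kb from each side, leaving out windows with 0 reads or the fullest 1%, and other count minimums moved no ratio beyond its interval and no count by over 1.5 times. Counting up to 1 read as empty, or thinning to the shallowest library, moved no count of empty windows by over 1.5 times. At a median of 9 to 16 reads, a 100 bp window shows only large differences.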

Other observations

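Across the 150 windows of 1 kb with at least 20 reads in every library, the input libraries of the genotypes followed each other (Pearson r = 0.855, Spearman rho = 0.850), and the preimmune libraries did so little (r = 0.135, rho = 0.10). Within a genotype, preimmune and input correlated at r = 0.560 in su(Hw)f and r = -0.0063 in wild type. Across genotypes, su(Hw)f preimmune correlated with wild-type input at r = 0.625, above the value with its own input. Wild-type preimmune correlated with su(Hw)f input at r = -0.102. Preimmune over input correlated between genotypes at r = 0.479 (rho = 0.440) in the interval, and at r = 0.730 (rho = 0.720) over 20471 windows on the rest of X. Neighbouring windows can share fragments and base composition, neither of which was measured, so these values are a description across windows and not across replicates.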
